A study of Homo sapiens with 8 samples.

Results

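The 9 genes described here lie on the short arm of chromosome 3 (3p), the arm most often lost in clear cell kidney cancer. They were picked by name as known 3p tumour suppressor or driver genes (VHL, CTNNB1, SETD2, SMARCC1, RBM5, BAP1, PBRM1, FHIT and FOXP1, in order from the tip of the arm), and all 9 were among the 28395 genes of the count table. The rule goes by name and uses no measured value, although the genes were proposed with earlier results of these data known. Polyadenylated RNA was sequenced from A-498 cells, a long-used line from a human kidney carcinoma, grown as 4 derived lines with 2 replicates each. The first control line (control 1) carried non-targeting sgRNA-1 and the second (control 2) non-targeting sgRNA-2; both are labelled wild type. KO 1 carried ANXA4 sgRNA-1 and KO 2 carried ANXA4 sgRNA-2; both are labelled ANXA4 knockout, ANXA4 being the gene of the membrane-binding protein annexin A4 on chromosome 2. Each guide RNA was represented by 1 line, so a guide and a line cannot be told apart, and the labels do not say whether a line was 1 clone. They do not say whether the 2 replicates of a line were separate cultures, so the p-values measure only the spread between these libraries.

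Loss of 3p removes a copy of several tumour suppressors together, and the remaining copy of VHL is then often mutated. VHL is the substrate receptor of a ubiquitin ligase that marks hydroxylated HIF-alpha subunits for degradation, and A-498 is known to carry an inactivating VHL mutation. PBRM1, SMARCC1, BAP1 and SETD2 act on chromatin, CTNNB1 encodes beta-catenin, and the RNA level of all of these can follow the number of gene copies. DNA copy number was not measured in this series.

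ANXA4 was measured first as the check of the labels. Its normalized count was 2821 and 3614 in control 1, 3858 and 6773 in control 2, 236 and 234 in KO 1 and 3433 and 4142 in labelled KO 2. Only KO 1 was low. The line labelled KO 2 stood inside the range of the control libraries, so any difference of that line is given as one of the line labelled KO 2. An edited transcript can still be counted, so the RNA level does not show whether that line was edited.

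Library depth ran from 15784890 to 22631588 reads, and mitochondrial genes took 4.67% to 13.8% of them, most in replicate 2 of labelled KO 2. The kidney markers PAX8 (2987 to 4476) and PAX2 (232 to 412) were present in every library, as were VIM, KRT8, KRT18, CDH6 and CDH2, whereas CA9, a gene switched on by HIF in most clear cell tumours, read only 2.07 to 24.8. Among the markers of other cell types, CD3E, CDH5 and LUM were at 0 throughout, PTPRC, DCN and APOA1 had at most 1 read in a library, and CD14, PECAM1, VWF, PDGFRB and ALB stayed at or below 19.8. Genes on 3p took 2.26% and 2.18% of the reads of nuclear genes in the control 1 libraries and 1.54% to 1.63% in the other 6. A lower normalized count in such bulk RNA cannot separate fewer cells expressing a gene from less RNA per cell.

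The promoters are printed of the 4 members with a listed promoter at the gene start, among them FHIT, which was nearly silent. Each is the 300 bases from 250 before to 50 after the gene start in RefSeq (GRCh38.p14), read 5′ to 3′ on the gene's strand. Capitals mark the letters of the GC box, which are GGGCGG, and of the box named after its letters CCAAT, on either strand. The CTNNB1 promoter lies at chr3:41199255-41199554, plus strand, that of RBM5 at chr3:50088669-50088968, plus strand, that of PBRM1 at chr3:52685864-52686163, minus strand, and that of FHIT at chr3:61251403-61251702, minus strand.
CTNNB1: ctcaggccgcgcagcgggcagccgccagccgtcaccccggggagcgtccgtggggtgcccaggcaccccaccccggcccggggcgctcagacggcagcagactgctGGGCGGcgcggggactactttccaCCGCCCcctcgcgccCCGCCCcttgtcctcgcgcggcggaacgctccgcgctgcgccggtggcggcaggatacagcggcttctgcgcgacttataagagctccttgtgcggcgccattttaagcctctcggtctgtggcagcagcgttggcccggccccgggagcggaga
RBM5: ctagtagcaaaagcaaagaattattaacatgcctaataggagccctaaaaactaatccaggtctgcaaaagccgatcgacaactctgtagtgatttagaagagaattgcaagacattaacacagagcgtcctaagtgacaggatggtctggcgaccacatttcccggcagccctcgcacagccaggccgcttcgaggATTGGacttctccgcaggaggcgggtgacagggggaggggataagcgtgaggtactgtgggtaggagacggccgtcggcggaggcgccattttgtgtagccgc
PBRM1: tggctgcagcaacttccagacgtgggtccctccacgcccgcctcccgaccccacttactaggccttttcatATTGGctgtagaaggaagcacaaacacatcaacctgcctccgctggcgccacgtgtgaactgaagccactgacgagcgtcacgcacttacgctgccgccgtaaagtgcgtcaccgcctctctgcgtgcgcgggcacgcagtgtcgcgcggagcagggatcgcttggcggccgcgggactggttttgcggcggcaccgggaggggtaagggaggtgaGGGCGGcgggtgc
FHIT: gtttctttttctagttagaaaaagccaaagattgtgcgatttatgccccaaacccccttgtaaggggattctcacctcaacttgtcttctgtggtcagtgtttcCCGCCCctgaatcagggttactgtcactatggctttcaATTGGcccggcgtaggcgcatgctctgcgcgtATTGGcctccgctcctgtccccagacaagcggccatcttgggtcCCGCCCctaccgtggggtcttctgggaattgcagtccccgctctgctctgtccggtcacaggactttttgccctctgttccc
The GC box is in 45.0% of the 35116 RefSeq promoters of this length and the CCAAT box in 34.6%. CTNNB1 had 3 GC boxes and no CCAAT box, RBM5 had 1 CCAAT box and no GC box, PBRM1 had 1 of each, and FHIT had 2 of each. None of the 4 held the ETS core CCGGAAG on either strand (10.3% of promoters) or the TATA box (TATAAA, 11.5%). Their GC content was 74% for CTNNB1, 65.3% for PBRM1, 55% for FHIT and 53.3% for RBM5, beside a median of 58.7%. The expressed genes CTNNB1 and RBM5 thus lay on opposite sides of that median. These matches describe the letters of the windows only.

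Per kilobase of merged exon (GENCODE 29), the mean normalized count over the 8 libraries was highest for BAP1 (308 ± 75.3, SD over the 8 libraries) and CTNNB1 (278 ± 80.7). SMARCC1 followed at 204 ± 64 and VHL at 159 ± 26.7. Next came SETD2 (85.5 ± 17.6), RBM5 (84.7 ± 16.5) and PBRM1 (68 ± 14.9), then FOXP1 (22.6 ± 4.53) and, far below, FHIT (1.17 ± 0.267). BAP1 and CTNNB1, and SETD2 and RBM5, differed by less than the SD of either, whereas the steps from VHL to SETD2, PBRM1 to FOXP1 and FOXP1 to FHIT exceeded both SDs. Merged exons count every annotated isoform, which lowers the value of a gene with many isoforms such as FOXP1.

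**Figure D1:**
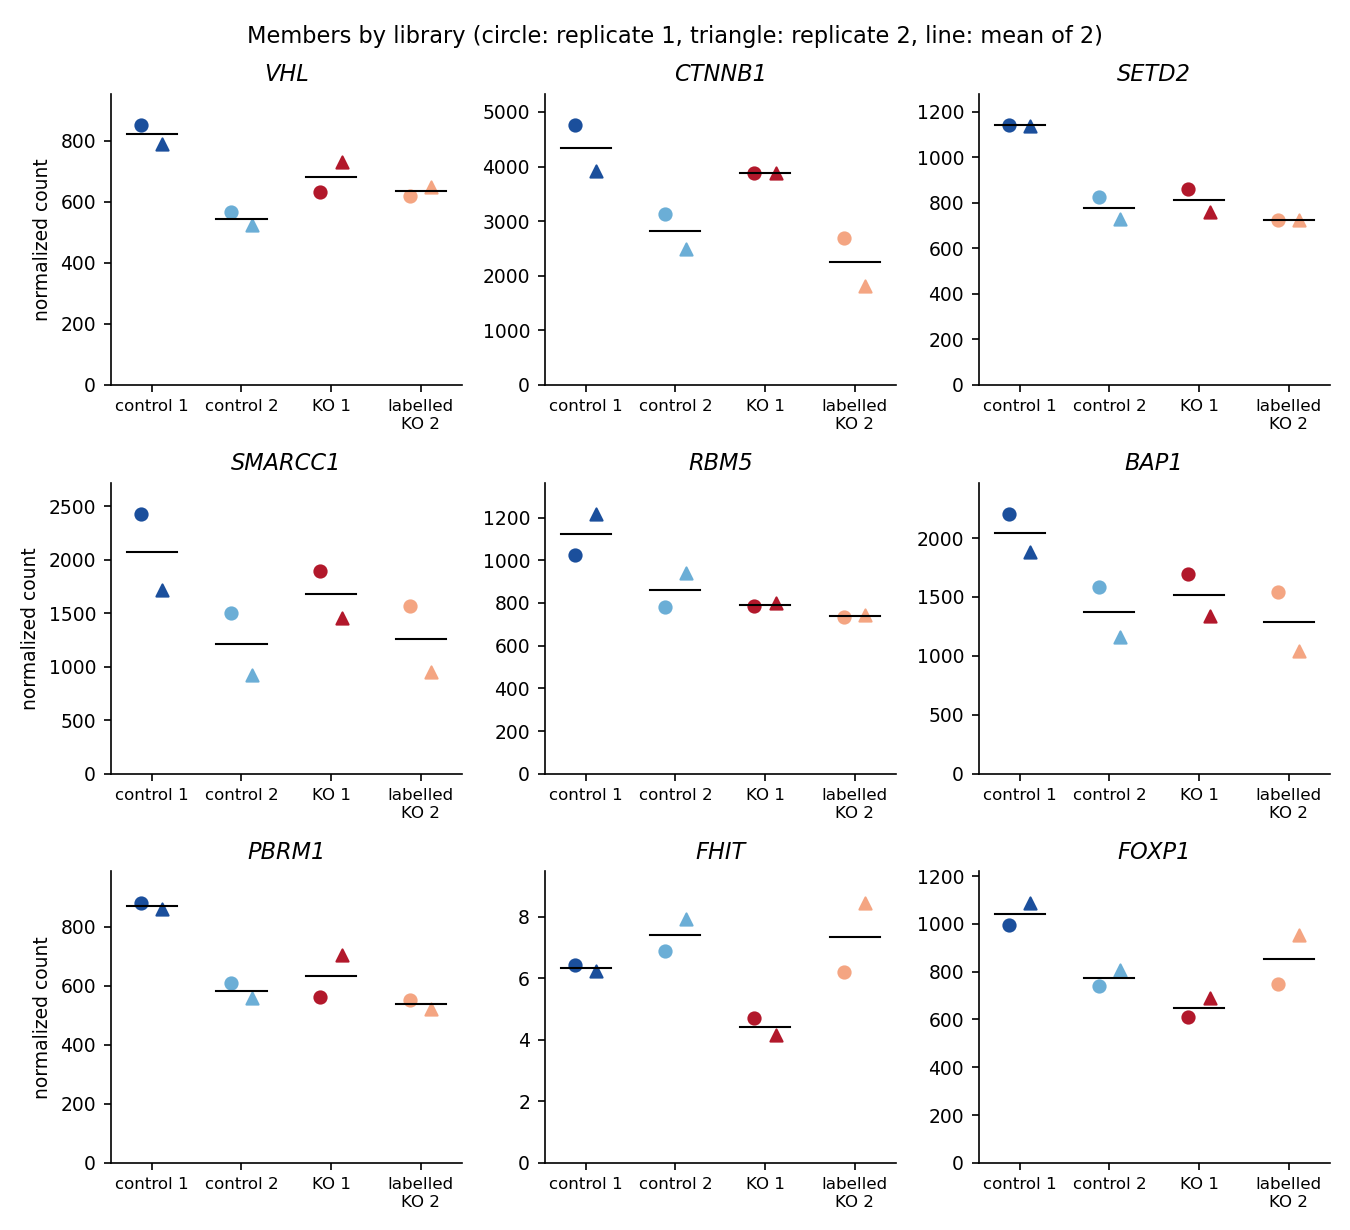
Normalized count (vertical axes, starting at 0) of each member in the 8 libraries, by line; circles are replicate 1, triangles replicate 2 and bars the mean of both. The mean of control 1 is highest in every panel except FHIT, whose values are all below 10, and in SMARCC1 the replicate 1 value of KO 1 (1894) exceeds the lower control 1 value (1718).

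VHL (chr3:10141778-10153667, plus strand) was measured at 853 and 791 in control 1, 566 and 525 in control 2, 633 and 732 in KO 1 and 621 and 648 in labelled KO 2. Control 1 was highest in both libraries and control 2 lowest in both, with the KO-labelled lines between. Log2 differences below come from limma on log2(normalized count + 1), with p adjusted by Benjamini-Hochberg over all 14040 tested genes. Control 2 differed from control 1 by -0.59 (SE 0.14, adjusted p = 0.071), which in limma passed the 0.05 threshold only when the replicate number was a block in the fit (adjusted p = 0.0093). KO 1 differed from control 1 by -0.27 (SE 0.14, adjusted p = 0.27) and labelled KO 2 by -0.37 (SE 0.14, adjusted p = 0.12). Over all 8 libraries the KO-labelled lines differed from the controls by -0.03 (SE 0.19, adjusted p = 0.98), the smallest difference of the 8 tested members.

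The genes that work with VHL did not share this order. Of 4 other subunits of its ligase (ELOB and ELOC among them), none was called against control 1 or between the KO-labelled lines. With the replicate number as a block in the fit, 1 was higher in labelled KO 2 than in control 1 (27.8% of all genes were called) and than in KO 1 (24.5%). The 4 subunits had a median difference of control 2 from control 1 of 0.13. Of 6 tested HIF subunits and hydroxylases, EGLN1, the main oxygen sensor that hydroxylates HIF-alpha, was higher in KO 1 than in control 1 by 0.74 (SE 0.15, adjusted p = 0.019) and in labelled KO 2 by 0.59 (SE 0.15, adjusted p = 0.033). It read 1686 and 1801 in control 1, 2230.1 and 2057 in control 2, 2929 and 2875 in KO 1 and 2979.6 and 2323 in labelled KO 2. Control 1 was lowest for EGLN1, the reverse of VHL. Among 18 HIF target genes, 1 was higher and none lower in control 2 than in control 1, where 2.13% of all genes were called, with a median difference of 0.01 beside -0.00 over all genes. With the block, 1 was higher and 3 were lower (12.5% of all genes). The gene called without the block was CXCR4, a chemokine receptor, at 186 and 177 in control 1, 631 and 1551 in control 2, 979 and 1299.7 in KO 1 and 849 and 1578 in labelled KO 2. CXCR4 was thus low in control 1 alone, and was higher by 2.44 (SE 0.41, adjusted p = 0.027) in control 2, 2.63 (SE 0.41, adjusted p = 0.0069) in KO 1 and 2.67 (SE 0.41, adjusted p = 0.0046) in labelled KO 2. PFKFB4, a regulator of glycolysis that itself lies on 3p, went the other way, at -1.43 (SE 0.32, adjusted p = 0.029) in KO 1 against control 1. NDRG1 was lower in labelled KO 2 than in KO 1 by -1.24 (SE 0.25, adjusted p = 0.027), as was TGFA, a growth factor, by -1.42 (SE 0.30, adjusted p = 0.029). NDRG1 read 5000 to 6902 in the control libraries, 9575 and 12767 in KO 1 and 5890 and 3717 in labelled KO 2. It was higher in KO 1 than in both controls by 0.92 (SE 0.22, adjusted p = 0.042). TGFA read 4246 to 7491 in the control libraries, 6603 and 9642 in KO 1 and 2540 and 3480 in labelled KO 2. Of the 18, 4 were lower and none higher in labelled KO 2 than in KO 1 (6.94% of all genes). With the block, 3 were higher and 5 lower (24.5%).

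PBRM1 (chr3:52545367-52685913, minus strand) encodes the bromodomain subunit that defines the PBAF form of the SWI/SNF remodelling complexes. Its values were 882 and 860.1 in control 1, 609 and 557 in control 2, 563 and 704 in KO 1 and 553 and 520.3 in labelled KO 2. Both control 1 libraries lay above all others, control 2 and KO 1 overlapped, and both labelled KO 2 libraries were lowest, just below control 2. It was lower in labelled KO 2 than in control 1 by -0.70 (SE 0.15, adjusted p = 0.019). In limma, the differences of control 2 (-0.58 (SE 0.15, adjusted p = 0.094)) and KO 1 (-0.47 (SE 0.15, adjusted p = 0.094)) from control 1 passed only with the replicate block, at adjusted p = 0.015 and 0.024. The nearest tested genes on its 2 sides, UQCC5 and GNL3, differed by -0.25 and -0.58 between control 2 and control 1. GNL3 overlaps PBRM1 on the opposite strand; the use of strand in counting is not given in the sources used here, so reads of such pairs cannot be told apart.

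SMARCC1 (chr3:47585269-47781893, minus strand) encodes a core scaffold subunit of all SWI/SNF complexes. It read 2430.0 and 1718 in control 1, 1505 and 923 in control 2, 1894 and 1459 in KO 1 and 1567 and 955 in labelled KO 2. Replicate 2 was lower than replicate 1 in all 4 lines, and the spread within a line was as wide as most gaps between lines. In limma on all 8 libraries, no pair of lines passed without the block. With it, SMARCC1 was lower in control 2 than in control 1 (-0.79 (SE 0.12, adjusted p = 0.0014)) and in labelled KO 2 than in control 1 (-0.74 (SE 0.12, adjusted p = 0.0006)), and higher in KO 1 than in control 2 (0.50 (SE 0.12, adjusted p = 0.014)).

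The other SWI/SNF subunits are mostly coded elsewhere. None of 3 further PBAF-specific subunits, of 8 tested core and shared subunits or of 9 BAF and ncBAF subunits was called between control 2 and control 1, where the list medians were 0.15, -0.01 and -0.11. With the block, 1 gene of each of these 3 lists was lower in control 2 (12.5% of all genes were called). ACTL6A, an actin-related core subunit coded on the long arm of chromosome 3, read 2148 and 2428 in control 1, 1606 and 1697 in control 2, 1478 and 1639 in KO 1 and 1030.1 and 1206 in labelled KO 2. It was lower than in control 1 in KO 1 (-0.55 (SE 0.14, adjusted p = 0.044)) and in labelled KO 2 (-1.03 (SE 0.14, adjusted p = 0.0027)). SMARCA2, an ATPase subunit, was lower in labelled KO 2 than in the controls (-0.51 (SE 0.12, adjusted p = 0.026)). DPF3, a subunit with low values here, was lower in KO 1 than in the controls (-1.96 (SE 0.31, adjusted p = 0.0087)), at 7.83 and 6.22 beside 38.6 and 31.2 in control 1 and 28.4 and 23.8 in control 2.

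BAP1 (chr3:52401008-52410008, minus strand), the deubiquitinase that removes ubiquitin from histone H2A, measured 2207 and 1879 in control 1, 1582 and 1164 in control 2, 1696 and 1337 in KO 1 and 1539 and 1043 in labelled KO 2. Control 1 was above all 6 other libraries, and replicate 2 was the lower in each line. In limma on all 8 libraries, no pair of lines passed without the block. With it, BAP1 was lower than in control 1 in control 2 (-0.59 (SE 0.11, adjusted p = 0.006)), KO 1 (-0.43 (SE 0.11, adjusted p = 0.015)) and labelled KO 2 (-0.68 (SE 0.11, adjusted p = 0.00081)). Of 10 tested partners of BAP1 none was called between the control lines, with or without the block, and the median was -0.02. ASXL1, which activates the enzyme, was lower in KO 1 than in both controls (-0.50 (SE 0.10, adjusted p = 0.026)), with 1319.9 and 1333 in KO 1 beside 1897 and 1741 in control 1. ASXL2 (-0.70 (SE 0.17, adjusted p = 0.048)) and the transcription factor FOXK1 (-0.48 (SE 0.12, adjusted p = 0.049)) were lower in labelled KO 2 than in KO 1, close to the threshold.

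SETD2 (chr3:47016436-47164840, minus strand) encodes the enzyme that writes trimethylation of lysine 36 on histone H3. Its counts were 1143 and 1137 in control 1, 826 and 727 in control 2, 861 and 760.3 in KO 1 and 724 and 725 in labelled KO 2. Replicate 2 of control 1 stood at 0.995 of replicate 1, and both lay above the other 6 libraries. Control 2 and KO 1 overlapped, and both labelled KO 2 libraries were lowest, just below the lower control 2 value. It was lower in labelled KO 2 than in control 1 by -0.65 (SE 0.14, adjusted p = 0.016). Against control 1 it differed by -0.56 (SE 0.14, adjusted p = 0.076) in control 2 and -0.49 (SE 0.14, adjusted p = 0.057) in KO 1, which passed with the replicate block (adjusted p = 0.0083 and 0.008). Of 16 other writers, erasers and readers of this mark, none was called between control 2 and control 1 or between KO 1 and control 1, with medians of 0.01 and 0.13. With the block, 2 were higher in control 2 (12.5% of all genes were called) and 3 in KO 1 (25.0%), and none lower. Against control 1, labelled KO 2 had 2 of them higher and 1 lower (12.3% of all genes were called), and 2 higher and 5 lower with the block (27.8%). Those called without the block were DNMT3B, a DNA methyltransferase that binds the mark (0.80 (SE 0.15, adjusted p = 0.01)), NSD3 (0.69 (SE 0.16, adjusted p = 0.026)) and PSIP1, a reader (-0.76 (SE 0.17, adjusted p = 0.02)). NSD1, which writes the dimethyl mark, was lower in labelled KO 2 than in KO 1 (-1.19 (SE 0.28, adjusted p = 0.041)).

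CTNNB1 (chr3:41199505-41240443, plus strand) encodes beta-catenin, which links cadherins to the cytoskeleton and carries Wnt signals to the nucleus. It read 4766 and 3916 in control 1, 3138 and 2483 in control 2, 3879 and 3873 in KO 1 and 2692 and 1808 in labelled KO 2. KO 1 came close to the lower control 1 value, control 2 was lower, and labelled KO 2 held the lowest library. The line means were 4341 ± 601 (SD, n = 2), 2811 ± 463 (SD, n = 2), 3876 ± 4.09 (SD, n = 2) and 2250.2 ± 625 (SD, n = 2) in control 1, control 2, KO 1 and labelled KO 2. CTNNB1 was lower in labelled KO 2 than in control 1 by -0.97 (SE 0.21, adjusted p = 0.018) and than in both controls by -0.65 (SE 0.18, adjusted p = 0.049). Its difference between labelled KO 2 and KO 1, -0.81 (SE 0.21, adjusted p = 0.051), passed with the replicate block (adjusted p = 0.001), as did that of KO 1 from control 2, 0.47 (SE 0.13, adjusted p = 0.027). Against control 1, KO 1 differed by -0.16 (SE 0.21, adjusted p = 0.7). ULK4, which overlaps CTNNB1 on the opposite strand, differed by 0.11 between labelled KO 2 and KO 1, so it did not share the CTNNB1 difference there.

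Of 8 genes of the destruction complex that degrades beta-catenin, 1 was higher and 2 were lower in labelled KO 2 than in KO 1, where 6.94% of all genes were called, and 1 was higher and 3 were lower with the block (24.5%). GSK3B, the kinase, coded on 3q, read 1154 and 1109 in control 1, 886 and 765 in control 2, 972 and 1097 in KO 1 and 730.2 and 483 in labelled KO 2, and was lower by -0.80 (SE 0.20, adjusted p = 0.048). AMER1, a scaffold coded on the X chromosome, was lower by -1.33 (SE 0.25, adjusted p = 0.019). AXIN2, a scaffold that is also a Wnt target, was higher by 1.46 (SE 0.36, adjusted p = 0.045), at low values (12.5 and 12.4 in KO 1 and 37.2 and 35 in labelled KO 2, beside 73.6 and 62.4 in control 1). JUP, the close relative of beta-catenin that binds the same cadherins, stood at 269 and 244 in control 1, 637 and 504 in control 2, 853 and 847 in KO 1 and 774 and 486 in labelled KO 2. Control 1 was lowest for JUP, which was higher than there by 1.14 (SE 0.22, adjusted p = 0.041) in control 2, 1.72 (SE 0.22, adjusted p = 0.003) in KO 1 and 1.25 (SE 0.22, adjusted p = 0.0083) in labelled KO 2. Among 7 transcription partners, the DNA-binding factors LEF1 (-1.02 (SE 0.18, adjusted p = 0.012)) and TCF7L2 (0.93 (SE 0.15, adjusted p = 0.0078)) differed in opposite directions between KO 1 and control 1, and TCF7L1 was lower in labelled KO 2 than in control 1 (-1.26 (SE 0.26, adjusted p = 0.015)). Of 7 tested Wnt targets, SP5 was lower than in control 1 in KO 1 (-1.32 (SE 0.30, adjusted p = 0.032)) and in labelled KO 2 (-1.36 (SE 0.30, adjusted p = 0.021)), and TNFRSF19 was lower in labelled KO 2 than in the controls (-0.99 (SE 0.22, adjusted p = 0.022)). TNFRSF19 was similarly low in both KO-labelled lines, at 66.5 and 62.2 in KO 1 and 66.2 and 67.6 in labelled KO 2. The control libraries read 89.2 to 205. Against both controls, 3 of the 7 targets were lower in KO 1 (7.01% of all genes were called) and 2 in labelled KO 2 (11.2%), and none was higher. With the block, 4 were lower in KO 1 (24.4%) and 2 in labelled KO 2 (27.4%), and none was higher.

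RBM5 (chr3:50088919-50119021, plus strand), an RNA-binding regulator of splicing, measured 1026 and 1218 in control 1, 780.4 and 941 in control 2, 784 and 798 in KO 1 and 735 and 745 in labelled KO 2. Both control 1 libraries were above the rest, and the KO-labelled libraries lay between 735 and 798. It was lower in labelled KO 2 than in control 1 by -0.59 (SE 0.15, adjusted p = 0.034). With the replicate block RBM5 was also lower in KO 1 than in both controls (-0.31 (SE 0.10, adjusted p = 0.047)), and it was the only member whose difference between control 2 and control 1 did not pass (-0.38 (SE 0.12, adjusted p = 0.055)). Its neighbour and paralogue RBM6 overlaps it on the same strand and was lower in KO 1 than in control 1 by -0.73 (SE 0.19, adjusted p = 0.046). The other paralogue, RBM10, on the X chromosome, differed by -0.24 (SE 0.13, adjusted p = 0.31).

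FOXP1 (chr3:70954708-71583978, minus strand), a forkhead transcription factor, read 994 and 1089 in control 1, 739.9 and 808 in control 2, 609 and 689 in KO 1 and 749 and 955 in labelled KO 2. Control 1 was highest, but here KO 1 was the lowest line and labelled KO 2 lay closer to control 1. FOXP1 was lower in KO 1 than in control 1 by -0.68 (SE 0.16, adjusted p = 0.034). With the replicate block it was also lower in KO 1 than in both controls (-0.47 (SE 0.10, adjusted p = 0.0054)) and higher in labelled KO 2 than in KO 1 (0.38 (SE 0.12, adjusted p = 0.03)), the opposite direction to CTNNB1 and SMARCC1. None of its 3 family members FOXP2, FOXP3 and FOXP4 was called in any comparison with control 1, with or without the block.

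FHIT (chr3:59747277-61251452, minus strand), a diadenosine triphosphate hydrolase at a fragile site that is often deleted in cancers, was read at 6.44 and 6.24 in control 1, 6.88 and 7.93 in control 2, 4.7 and 4.15 in KO 1 and 6.21 and 8.45 in labelled KO 2. The control 1 values lay inside the range of the other libraries. With 4 to 8 reads per library, these values cannot show whether FHIT was higher in control 1. It missed the filter for testing, a normalized count of at least 10 in at least 2 libraries, and is left out of the counts of tested members. Of 6 other genes of the HIT family, none was called against control 1. With the block, 1 was higher in KO 1 (25.0% of all genes were called) and 1 lower in labelled KO 2 (27.8%), each against control 1. Of the same family, APTX, a DNA repair enzyme, was lower in labelled KO 2 than in the controls (-0.45 (SE 0.12, adjusted p = 0.04)).

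Across the members, then, both control 1 libraries exceeded all 6 others in 7 of the 8 tested genes, SMARCC1 being the exception. The same held for 221 of the 362 other tested 3p genes (61.0%), for 193 of 411 genes of the long arm (3q; 47.0%), and for 9.31% of all 14040 tested genes. The 4 KO-labelled libraries lay below all 4 control libraries in none of the 8 members, beside 5.51% of all tested genes.

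As a median over its genes, the arm differed from control 1 by nearly the same amount in each of the other lines. The median log2 difference from control 1 of the 362 other 3p genes was -0.52 in control 2, -0.53 in KO 1 and -0.51 in labelled KO 2, corresponding for KO 1 to 0.691 of the control 1 level. Over all tested genes these medians were -0.00, -0.01 and 0.00. The 3 comparisons share the control 1 libraries. Among the pairs without control 1, the 3p medians were 0.03 (KO 1 against control 2), 0.04 (labelled KO 2 against control 2) and -0.00 (labelled KO 2 against KO 1). On 3q the medians were -0.34, -0.35 and -0.92 against control 1, so labelled KO 2 was lower on 3q than on 3p, and -0.56 against KO 1.

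In runs of 30 neighbouring tested genes, all 12 runs of 3p were below 0 against control 1 in all 3 lines. The run medians were -0.59 to -0.41 in control 2, -0.72 to -0.36 in KO 1 and -0.58 to -0.43 in labelled KO 2. The runs that hold VHL, CTNNB1, SETD2 with SMARCC1, RBM5, BAP1 with PBRM1, FHIT and FOXP1 were thus all shifted as medians. Stretches shorter than 30 genes were not examined. By library, the median deviation of the 3p genes from their mean was 0.40 and 0.37 in control 1 and between -0.16 and -0.10 in the other 6. Of the 18 nearest tested genes on both sides of the 9 members, 16 were below 0 in control 2, 14 in KO 1 and 15 in labelled KO 2 against control 1. CSPG5, beside SMARCC1, was the largest exception, at 3.10 in control 2.

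**Figure D2:**
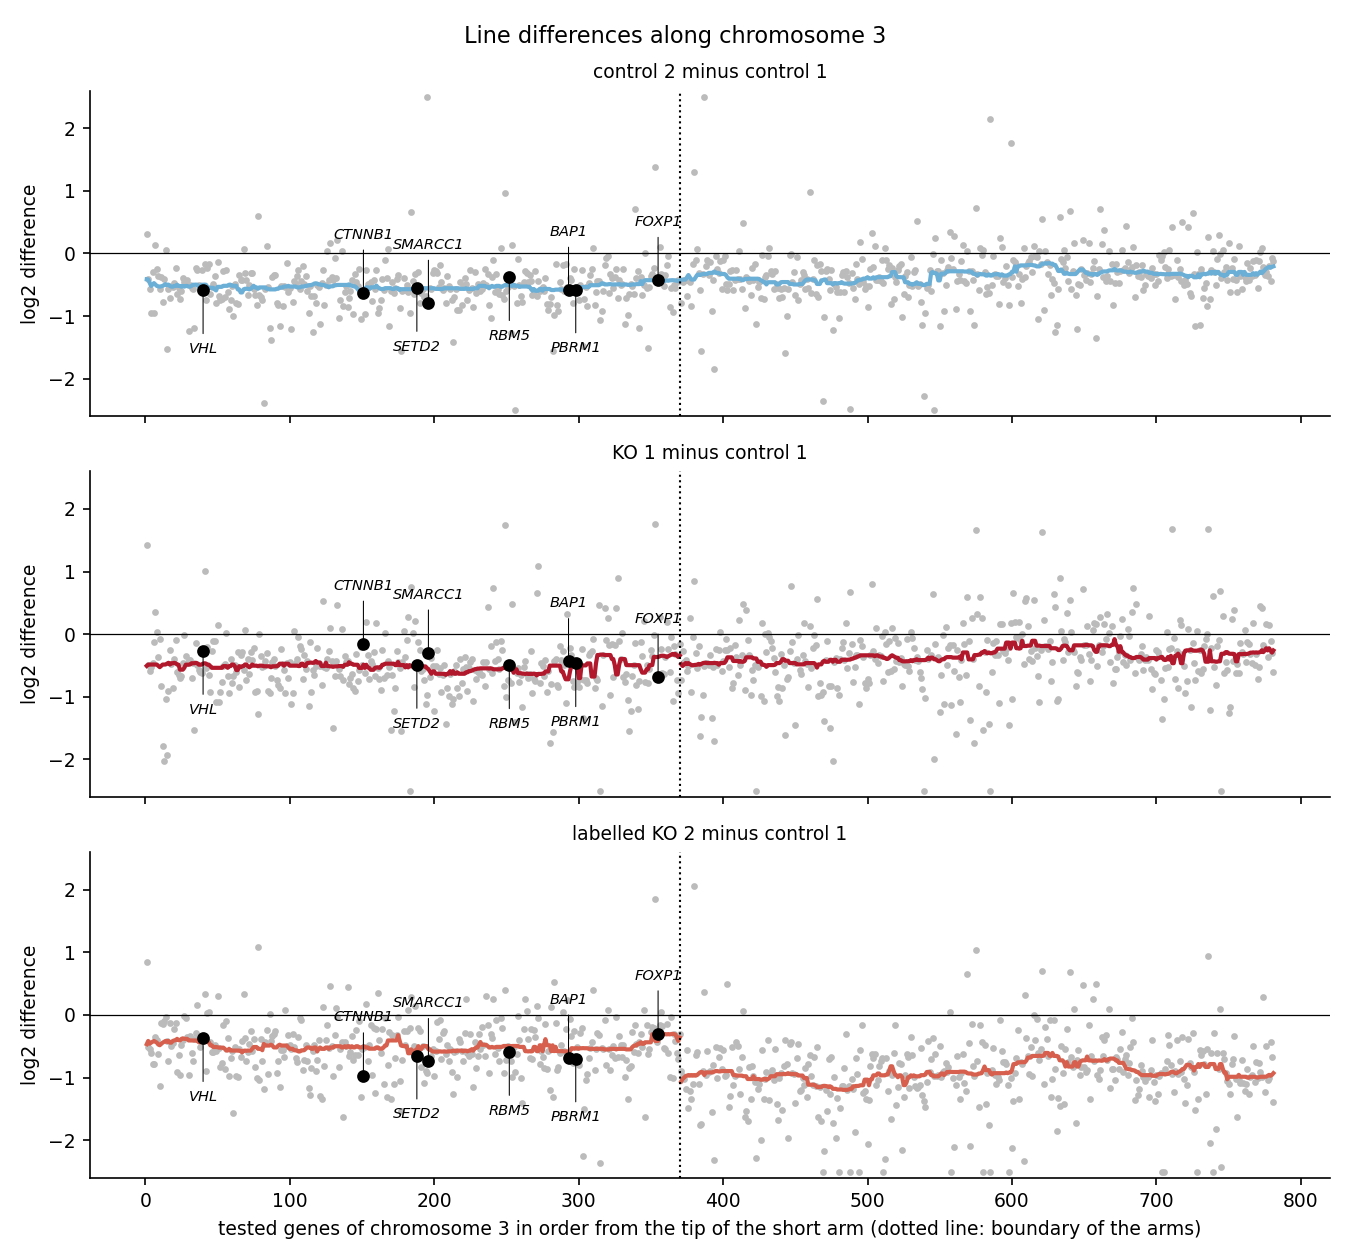
Log2 difference from control 1 (vertical axes) of each tested gene of chromosome 3 in order along the chromosome (horizontal axis), for control 2, KO 1 and labelled KO 2; grey points are genes, coloured lines medians over 31 genes, black points members, the dotted line is the boundary of the arms, and values beyond 2.5 are drawn at 2.5. The 3p line stays below 0 in all 3 panels, at a median of -0.51 to -0.53, and drops to -0.92 on 3q in labelled KO 2 only.

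Set against their arm, most members lay between its quartiles in the comparisons with control 1, and fewer did between labelled KO 2 and KO 1. Quartiles enclose as many of the other 3p genes as they leave out, so 4 of 8 equals the share over the arm. Whether members lay closer to the median than other 3p genes was not tested. In control 2 against control 1, all 8 differed by -0.79 to -0.38, and 7 lay between the quartiles of the other 3p genes (-0.70 and -0.36), SMARCC1 lying below them. In KO 1 against control 1, 6 of 8 lay between the quartiles (-0.75 and -0.29). CTNNB1 lay 0.38 above the arm's median, higher than 83.7% of the 362 genes, and VHL 0.26 above it. In labelled KO 2 against control 1, again 6 lay between the quartiles, with CTNNB1 0.46 lower than the median, below all but 40 of the 362 genes. Between labelled KO 2 and KO 1, 3 of 8 lay between the quartiles (-0.23 and 0.24), and 7 of 8 differed by less than 0, FOXP1 being the exception. The count was 4 of 8 for KO 1 against control 2 and for KO 1 against both controls, 6 for labelled KO 2 against control 2 and 7 for it against both controls. The gap of CTNNB1 between labelled KO 2 and KO 1 was deeper than that of all but 12 of the 362 genes (3.31%), while FOXP1 stood higher than 85.4% of them.

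**Figure D3:**
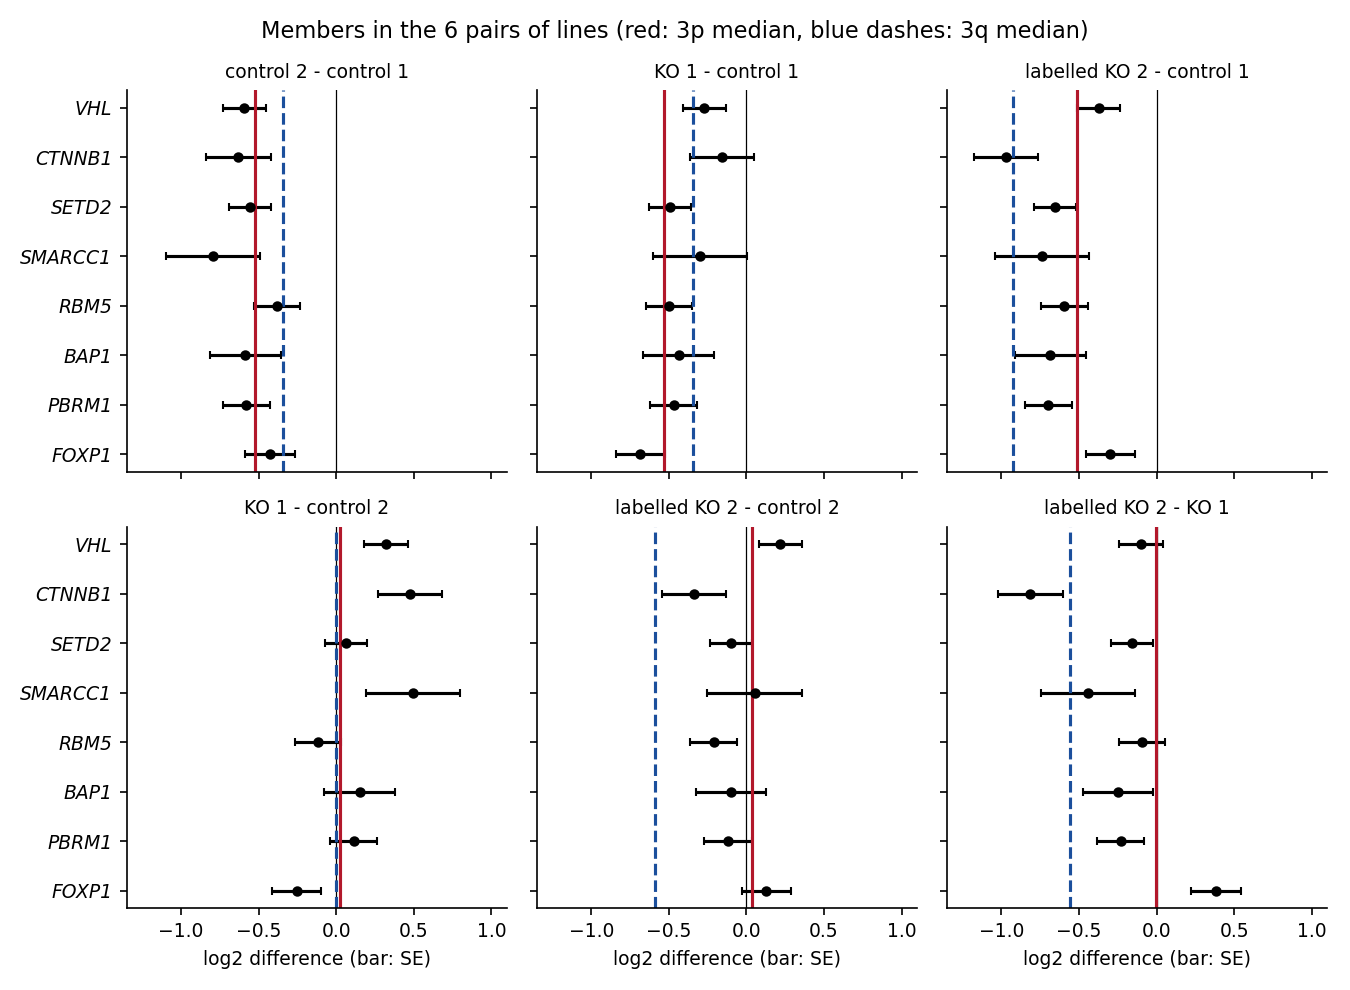
Log2 difference (horizontal axes) with its SE of the 8 tested members in the 6 pairs of lines; the red line is the median of the other 362 tested 3p genes and the blue dashed line that of the 411 tested 3q genes. The red line is at -0.52, -0.53 and -0.51 in the upper panels, where all 8 members lie below 0, and near 0 in the lower ones. In labelled KO 2 against KO 1, 7 of the 8 members lie below 0 (median -0.19), and CTNNB1 stands at -0.81.

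The tests gave the following counts of members. A moderated F test in limma for any difference among the 4 lines called 3 of 8, CTNNB1 (adjusted p = 0.037), SETD2 (0.037) and PBRM1 (0.047), where 15.1% of all tested genes were called. With the replicate block it called all 8, where 43.0% of all genes were called. Without the block these 3 calls were fragile to single libraries. CTNNB1 kept its call without either control 2 library or replicate 1 of labelled KO 2 and lost it without each of the other 5 (adjusted p up to 0.125). SETD2 held only without replicate 1 of control 2 and otherwise reached up to 0.195, and PBRM1 lost its call without any 1 of the 8 libraries (0.0586 to 0.217).

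Between the controls, limma called none of 8 (2.13% of all genes) although all 8 had an unadjusted p under 0.05. DESeq2 called 2, edgeR none, and limma with the block 7, all lower in control 2 (12.5% of all genes). KO 1 against control 1 gave 1 call, FOXP1 lower (8.95%), and 5 with the block (25.0%). Labelled KO 2 against control 1 gave 4, CTNNB1, SETD2, RBM5 and PBRM1, all lower (12.3%), and 7 with the block (27.8%). FOXP1 lost its call without either control 1 or either KO 1 library (adjusted p up to 0.227). In labelled KO 2 against control 1, all 4 calls were lost without either control 1 library, and those of CTNNB1, PBRM1 and RBM5 also without replicate 2 of labelled KO 2; that of RBM5 was lost as well without replicate 1 of that line or either KO 1 library. The highest adjusted p was 0.134 for CTNNB1, 0.106 for SETD2, 0.122 for PBRM1 and 0.232 for RBM5.

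Against control 2 no member was called in KO 1 (2.43%) or labelled KO 2 (5.24%), with 2 members under an unadjusted p of 0.05 in KO 1 and 0 in labelled KO 2, and none by edgeR or DESeq2. With the block, CTNNB1 and SMARCC1 were higher in KO 1 (16.2%) and none was called in labelled KO 2 (19.0%). Labelled KO 2 against KO 1 gave no call (6.94%; 2 members under an unadjusted p of 0.05, 1 called by DESeq2 and 0 by edgeR) and 3 with the block, CTNNB1 and SMARCC1 lower and FOXP1 higher (24.5%).

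Against both control lines together, KO 1 had no member called (7.01%; 2 under an unadjusted p of 0.05, 0 by edgeR and by DESeq2) and, with the block, RBM5 and FOXP1 lower (24.4%). Labelled KO 2 had CTNNB1 lower (11.2%), and 6 members lower with the block (27.4%). The CTNNB1 call did not hold in edgeR's quasi-likelihood test (adjusted p = 0.062) or without either control 1 library, replicate 1 of control 2, either KO 1 library or replicate 2 of labelled KO 2 (adjusted p up to 0.239). Over all 8 libraries, the KO-labelled lines against the controls gave no member without the block (0.235%) or with it (0.264%), none with an unadjusted p under 0.05, and none by edgeR or DESeq2 (4 and 3 members under an unadjusted p of 0.05). The limma fit here, with libraries of a line correlated, counts the spread between lines of a label. The edgeR and DESeq2 fits, with a mean per line, count only the spread between replicates. In limma with a mean per line, which counts only the spread between replicates, no member was called (10.5% of all genes; 4 members under an unadjusted p of 0.05), and with the replicate block RBM5, SETD2, FOXP1, BAP1 and PBRM1 were called lower (27.1%). The 8 members had a median difference of -0.27 there, beside -0.24 for the other 3p genes.

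To set the arm aside, each library's values were also centred on the median of their chromosome, or of their arm on chromosome 3, with the members left out of that median. The F test then called none of the 8 members (8.33% of all genes; 1 had an unadjusted p under 0.05). With the replicate block it called CTNNB1 (adjusted p = 0.0025) and SMARCC1 (0.019), beside 34.2% of all genes. On the centred scale and with the block, labelled KO 2 differed from KO 1 by -0.79 (SE 0.12, adjusted p = 0.0011) for CTNNB1, -0.42 (SE 0.11, adjusted p = 0.022) for SMARCC1 and 0.40 (SE 0.12, adjusted p = 0.031) for FOXP1. CTNNB1 (0.39 (SE 0.11, adjusted p = 0.02)) and SMARCC1 (0.33 (SE 0.10, adjusted p = 0.03)) were then higher in KO 1 than in both controls, whereas RBM5 and FOXP1, lower there with the block alone, were no longer called. For VHL, SETD2, BAP1, RBM5, PBRM1 and FOXP1, no difference among the lines beyond that of the arm was called by this F test.

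Replicates of the same number also moved together. Replicate 2 was below replicate 1 in all 4 lines for CTNNB1, SMARCC1 and BAP1, 3 of 8 members, beside 19.3% of all tested genes. In the model with a mean per line, replicate 2 differed from replicate 1 by -0.57 (SE 0.08, adjusted p = 0.0016) for SMARCC1, -0.39 (SE 0.08, adjusted p = 0.0079) for BAP1 and -0.30 (SE 0.09, adjusted p = 0.042) for CTNNB1, where limma called 17.6% of all genes. RBM5 and FOXP1 were higher in replicate 2 in all 4 lines but were not called (0.14 (SE 0.08, adjusted p = 0.26) and 0.20 (SE 0.08, adjusted p = 0.11)). SMARCC1 in replicate 2 stood at 0.707, 0.614, 0.771 and 0.609 of replicate 1 in control 1, control 2, KO 1 and labelled KO 2. The mitochondrial share of reads went from 4.67% to 6.35%, 6.39% to 9.05%, 6.43% to 6.23% and 6.40% to 13.8% in the same lines; its part in the SMARCC1 difference was not tested. Among HIF targets, ADM, a vasoactive peptide hormone, was higher in replicate 2 by 1.08 (SE 0.10, adjusted p = 0.00016) and VEGFA, the angiogenic growth factor, by 0.84 (SE 0.07, adjusted p = 7e-05).

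**Figure D4:**
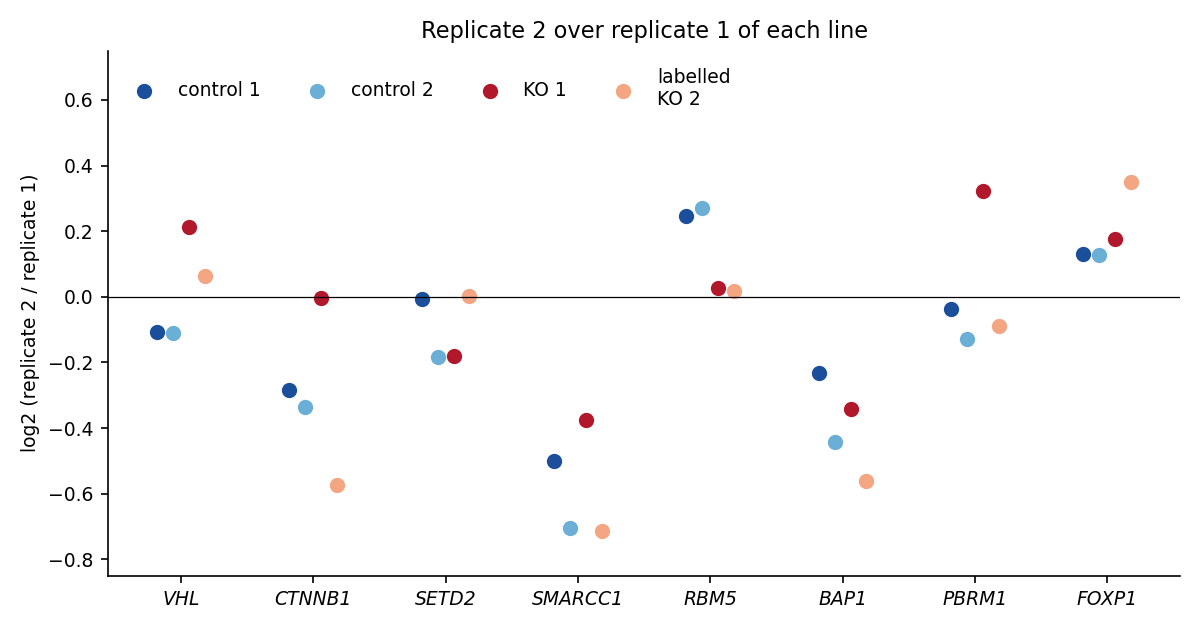
Log2 of the ratio of replicate 2 to replicate 1 (vertical axis) for the 8 tested members (horizontal axis), 1 point per line. All 4 points lie below 0 for CTNNB1, SMARCC1 and BAP1 and above 0 for RBM5 and FOXP1.

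The genes whose log2 values followed a called member most closely over the 8 libraries lay partly on the same chromosome. For SETD2 they were QRICH1 on 3p (Pearson r = 0.986) and CEP63 on 3q (0.986), for PBRM1 BRPF1 on 3p (0.977) and ALKBH8 on chromosome 11 (0.972), and for CTNNB1 ZNF572 on chromosome 8 (0.979) and VPS8 on 3q (0.979). Among the 50 genes closest to each member, 3p held 25 for BAP1, 23 for SETD2, 17 for PBRM1, 16 for VHL, 14 each for SMARCC1 and FOXP1, 7 for RBM5 and 6 for CTNNB1, where 2.64% of the tested genes are on 3p. On 3q lay 15 for CTNNB1, 12 for SETD2, 10 for RBM5, 6 each for BAP1 and PBRM1, 3 for VHL, 2 for SMARCC1 and 0 for FOXP1. Of the 14040 tested genes, 411 are on 3q. SMARCC1 and BAP1 correlated at 0.95, CTNNB1 and FOXP1 at -0.05. These coefficients describe 8 libraries of 4 lines that share their lines and replicate numbers.

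Other 3p genes known as tumour suppressors or drivers showed the same direction with some wider differences. Of 28 listed, 23 were tested. For comparison, 29, 94 and 92 of all 362 other 3p genes were called against control 1 in control 2, KO 1 and labelled KO 2 (171, 214 and 194 with the block), beside 2.13%, 8.95% and 12.3% of all tested genes (12.5%, 25.0% and 27.8% with the block). Of the listed genes, 7 were lower and none higher in control 2 than in control 1 (median -0.51; 14 lower with the block), 9 lower and none higher in KO 1 (median -0.63; 16 lower and 1 higher), and 8 lower and none higher in labelled KO 2 (median -0.52; 15 lower). SEMA3B, a secreted semaphorin, read 291 and 349 in control 1, 31 and 38.5 in control 2, 133 and 108 in KO 1 and 165 and 171 in labelled KO 2, lower by -3.17 (SE 0.22, adjusted p = 0.00022) in control 2 and -1.41 (SE 0.22, adjusted p = 0.0066) in KO 1. HYAL2, a hyaluronidase, read 1067 and 1103 in control 1, 594 and 669.6 in control 2, 521 and 453 in KO 1 and 419 and 401 in labelled KO 2, with -1.16 (SE 0.14, adjusted p = 0.0026) in KO 1 and -1.40 (SE 0.14, adjusted p = 0.0012) in labelled KO 2. For both, control 1 stood highest, with SEMA3B lowest in control 2 and HYAL2 in labelled KO 2. RARB, a retinoic acid receptor, was lower in control 2 by -1.16 (SE 0.19, adjusted p = 0.023), and PTPRG, a receptor phosphatase beside FHIT, in labelled KO 2 by -1.34 (SE 0.17, adjusted p = 0.0022). Between labelled KO 2 and KO 1, RASSF1 was higher by 0.67 (SE 0.16, adjusted p = 0.044) and SEMA3F lower by -1.47 (SE 0.18, adjusted p = 0.0045).

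**Figure D5:**
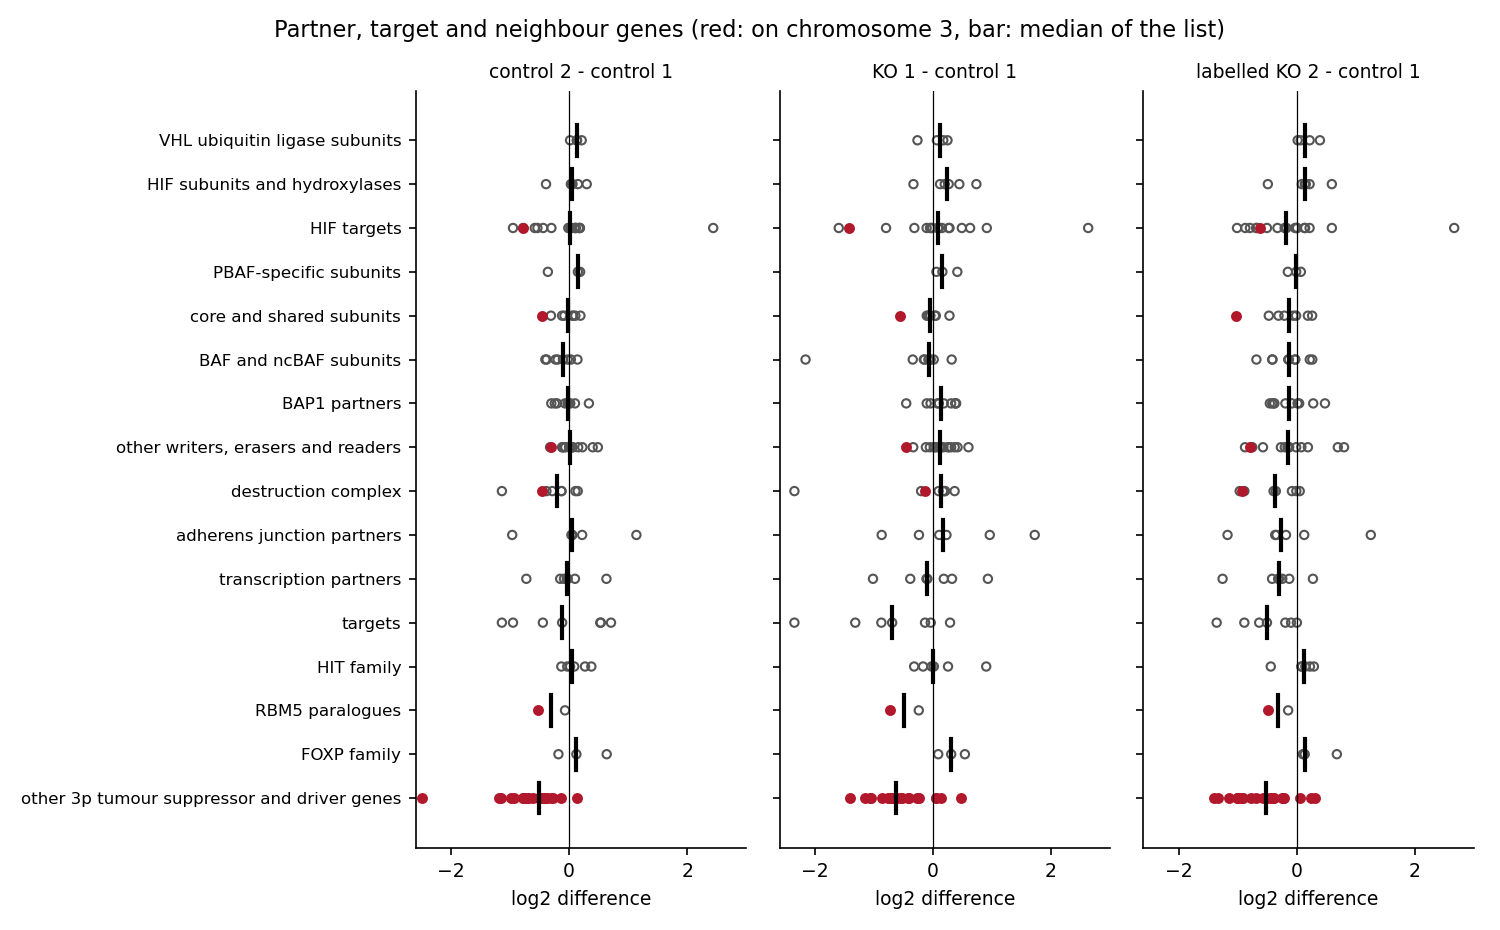
Log2 difference from control 1 (horizontal axes) of the tested genes of each list of partners, targets and relatives (rows), for control 2, KO 1 and labelled KO 2; red points are genes on chromosome 3, open points genes elsewhere, bars list medians, and values beyond -2.5 are drawn there. The bottom row, other 3p genes, has medians of -0.51, -0.63 and -0.52, while the lists of VHL ligase subunits and of BAP1 partners have medians of 0.13 and -0.02 in control 2.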

How the data were processed

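The deposited table held 1 column of normalized signal per library, made from featureCounts read counts per the file headers. The submitters' processing notes name fastp 0.23.2, HISAT2 2.2.1, featureCounts 2.0.1 and DESeq2 2.11.40.8 with the builds hg38 and GRCh38; the annotation and the use of strand are not given in the sources used here. Of the deposited values, 100% were whole multiples of the value of 1 read (tolerance 0.001), so whole reads were recovered; the factors differed from DESeq2 size factors by at most 3.12e-10 (relative). Entrez identifiers were matched to RefSeq (GRCh38.p14), which gave 27745 symbols; the 650 unmatched held 0.0332% of reads. The arms were divided at the widest stretch without genes.

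R 4.3.3 with limma 3.58.1 was used for the tests, after adding a pseudocount of 1 and taking log2, which shrinks the fold changes of low genes. The 14040 genes that reached 10 in 2 or more libraries entered. A single fit with 4 line means gave every comparison of single lines. KO-labelled and control lines were compared with the correlation of libraries of a line (0.33) from duplicateCorrelation. Alternatives were edgeR 4.0.16 and DESeq2 1.42.0 on recovered reads, other scalings, filters and pseudocounts, each library left out, and the replicate number as a block. Differences between replicates 2 and 1 correlated between lines at 0.285 to 0.5008 (all 6 pairs), so the numbers were taken to pair libraries. Replicates of a line differed beyond sampling noise in a chi-square test of their counts. Reads carry no molecular identifiers, so depth covers counting error only. The code was tested on simulated data.

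All members were named; of each list, at most the 2 largest rises and 2 largest falls among called genes, besides ANXA4, neighbouring genes and the 2 genes most correlated with each member called in the F test. CSPG5, ELOB, ELOC, RBM10 and the FOXP and overlapping genes were named in addition, some after their values were seen. The members and lists were chosen with earlier results of these data known. The pairs of single lines, the centring on an arm, the comparison of replicate numbers and the mean per line with the block were added after seeing the data.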

Additional observations from a re-analysis of the deposited data

How the results depend on the processing

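Across the alternatives that kept all 8 libraries, other than centring on the arm, none of the log2 differences of the tested members changed sign. In the fits without the replicate block, centring on the arm turned 17 of them, none called with or without the centring, to between 0.0024 and 0.34. Of these 17, 6 were in KO 1 against control 1. Some were called lower with the block alone, among them SETD2, BAP1 and PBRM1 in KO 1 and FOXP1 in control 2, each against control 1. The replicate block moved the count of members called from 0 to 2 in KO 1 against both controls, from 1 to 6 in labelled KO 2 against both controls, from 0 to 7 in control 2 against control 1, from 0 to 3 in labelled KO 2 against KO 1, from 3 to 8 among the 4 lines, from 1 to 5 in KO 1 and from 4 to 7 in labelled KO 2 against control 1, and from 0 to 2 in KO 1 against control 2; it changed no count in labelled KO 2 against control 2, or in KO-labelled lines against controls, where it gave 5, all lower, together with a mean per line. With the arm's median removed, the counts were 0 in labelled KO 2 against both controls, 0 among the 4 lines, and 0 in both KO-labelled lines against control 1. With that and the block they were 2 in KO 1 against both controls (CTNNB1 and SMARCC1, both higher, where the block alone called RBM5 and FOXP1 lower), 3 in labelled KO 2 against KO 1, 0 in KO 1 and 1 in labelled KO 2 against control 1, and 2 in KO 1 against control 2. DESeq2 called 2 members between the controls, 1 between the KO-labelled lines, 5 among the 4 lines and 2 in KO 1 against control 1. Labelled KO 2 against both controls gave 0 with edgeR, equal totals, no filter or a pseudocount of 0.1, and the F test gave 0 with equal totals. Labelled KO 2 against KO 1 gave 1 with TMM factors or with scaling that left out chromosome 3 and mitochondrial genes. With a library left out, the counts ranged from 0 to 1 in each KO-labelled line against both controls, between these lines and in KO 1 against control 1, from 0 to 2 among the 4 lines and from 0 to 4 in labelled KO 2 against control 1. Causes were not tested.

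The 3p median stayed negative against control 1. For control 2 it was -0.56 with equal totals, -0.50 without a filter and -0.50 with a pseudocount of 10. For KO 1 it was -0.48 under the last 2 of these and -0.51 to -0.54 with a library left out. For labelled KO 2 it was -0.55 with equal totals, -0.47 without a filter, -0.48 with a pseudocount of 10 and -0.54 with the scaling without chromosome 3. In KO 1 against both controls it was -0.23 without a filter and -0.27 to -0.22 with a library left out; for labelled KO 2 that range was -0.26 to -0.22 and for both KO-labelled lines -0.30 to -0.18. Medians near 0 changed sign or moved: labelled KO 2 against KO 1 gave 0.0133 with DESeq2, 0.0134 with edgeR, 0.0068 with a pseudocount of 10, -0.037 with equal totals and -0.011 to 0.017 with a library left out; labelled KO 2 against control 2 gave -0.020 to 0.049, and KO 1 against control 2 gave 0.057 with equal totals and 0 without a filter.

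Leaving out a library turned the sign of some uncalled member differences. In KO-labelled lines against controls the range was -0.34 to 0.065 for SMARCC1 and -0.11 to 0.057 for VHL. In KO 1 against both controls it was -0.31 to 0.029 for BAP1, -0.089 to 0.29 for SMARCC1 and -0.081 to 0.13 for VHL. In labelled KO 2 against both controls it was -0.26 to 0.090 for FOXP1 and -0.70 to 0.014 for SMARCC1. Between labelled KO 2 and KO 1 it was -0.53 to 0.031 for BAP1 and -0.21 to 0.0038 for VHL. For KO 1 against control 2 it was -0.071 to 0.37 for BAP1, -0.050 to 0.27 for PBRM1, -0.25 to 0.019 for RBM5 and -0.030 to 0.15 for SETD2. For labelled KO 2 against control 2 it was -0.38 to 0.18 for BAP1, -0.046 to 0.30 for FOXP1 and -0.30 to 0.41 for SMARCC1.

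Over all genes, calls ranged across alternatives from 0 to 3803 (33 as reported) for KO-labelled lines against controls, 148 to 3432 (984) for KO 1 and 814 to 3851 (1573) for labelled KO 2 against both controls, 43 to 1752 (299) between the controls, 87 to 3442 (975) between the KO-labelled lines and 669 to 6037 (2126) among the 4 lines. FHIT had at most 8.45 normalized counts in a library; whether depth limited it was not tested.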
